A study of Mus musculus with 3 samples.

Results

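The genes of the thick filament and the M-band of the cardiac sarcomere were examined in hearts of mouse embryos at embryonic day 15.5. The set held 9 genes: the myosin heavy chains Myh6, Myh7 and Myh7b, the essential light chain Myl3, the myosin-binding protein Mybpc3, the light chain kinase Mylk3, the giant protein titin (Ttn) and the myomesins Myom1 and Myom2. Their probes were found by gene name, without regard to case, among the 41174 gene probes of an Agilent whole-mouse-genome array. That gave 22 probes for 8 of the 9 genes, and no probe carried the name Myh7b. The 22 probes were 9 for Ttn, 3 for Myom1, 2 each for Myh6, Myh7, Myl3 and Myom2, and 1 each for Mybpc3 and Mylk3.

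The thick filament is a bundle of myosin molecules whose heads pull on actin. Each myosin has heavy chains, which carry the motor, and light chains, which stiffen the lever arm, and myosin-binding protein C sits on the filament and modulates the heads. Titin spans from the Z-disc to the middle of the sarcomere as a molecular spring, and there, at the M-band, myomesins cross-link the thick filaments. In the mouse heart the β heavy chain (Myh7) is known as the main chain of the fetal ventricle and the α chain (Myh6) as that of the atria and of the adult ventricle.

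RNA was measured on 3 two-colour arrays, each its own replicate. On every array a pool of 2 hearts labelled Lrrc10-/- carried Cy5 and a pool of 2 hearts labelled Lrrc10+/+ carried Cy3. Both groups were on a C57BL/6 background and were littermates, and the genotypes are those of whole embryos. The dyes were never exchanged, so genotype and dye cannot be told apart. The wild-type labels also give an adult time of sacrifice beside embryonic day 15.5, and the embryonic age was taken. Whole hearts were used, in which fewer muscle cells and less RNA per muscle cell cannot be told apart.

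The check of the labels went against them. Lrrc10, a cardiac gene for a protein with leucine-rich repeats, was higher in the channel labelled Lrrc10-/- than in the wild-type channel, with log2 ratios of 3.99, 4.78 and 4.45 on replicates 1, 2 and 3. For this reason each difference below is given by the channel labels, and every higher or lower would be exchanged if the labels were. All 11 cardiomyocyte markers listed were well above background in both channels on all 3 arrays. Of 12 skeletal muscle markers 9 passed the filter on dim probes, Myod1, Myog and Pax7 among them, while Myf5, Myf6 and Pax3 did not. The summed processed signal of the 8 with an unsaturated probe ranged from 18110 to 26600 in Cy5 and from 22280 to 33030 in Cy3. The brightest of the 8 were Acta1 (raw Cy5 signal 8971, 19980 and 13530) and Tnni2 (2412, 7837 and 10100), whereas Pax7 was dim (157, 481 and 211). The sum is therefore no measure of skeletal muscle in the pools. The median log2 ratio of the 7 cardiomyocyte markers with an unsaturated probe was -0.02, 0.25 and -0.04 on replicates 1, 2 and 3, and their summed processed signal ranged from 81000 to 128500 in Cy5 and from 79350 to 134300 in Cy3. Liver markers stood apart on replicate 2, where the summed processed signal of Afp and Apoa2 was 692 in Cy5 against 19810 in Cy3, and whether this touches any value below was not tested. Across all tested probes the log2 ratios of replicate 3 correlated less with those of the other arrays (r = 0.22 with each) than replicates 1 and 2 did with each other (r = 0.51, a description over probes that share arrays and dyes).

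Each value below belongs to 1 probe, and probes of 1 gene differed in their ratios and in saturation, so the 60-base probes that read coding sequence of Myh6, Myl3 and Ttn are shown as the array files give them, in lower case throughout because no stretch within them is singled out. Positions are those of the files (mouse build mm9), and probes spanning more than 60 bases of the genome cross an exon junction.
Myh6 A_51_P512210 (chr14:55563592-55565177, minus strand): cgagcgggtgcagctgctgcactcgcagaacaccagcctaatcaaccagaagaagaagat
Myh6 A_52_P117510 (chr14:55565256-55565315, minus strand): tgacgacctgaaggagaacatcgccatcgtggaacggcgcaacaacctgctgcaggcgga
Myl3 A_51_P434910 (chr9:110666325-110666384, plus strand): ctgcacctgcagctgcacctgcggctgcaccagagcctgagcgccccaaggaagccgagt
Myl3 A_51_P177210 (chr9:110671632-110671926, plus strand): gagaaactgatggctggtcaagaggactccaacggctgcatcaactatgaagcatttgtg
Ttn A_52_P524700 (chr2:76803165-76803224, minus strand): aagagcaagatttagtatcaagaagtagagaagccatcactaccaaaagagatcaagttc
Ttn A_51_P401792 (chr2:76783527-76783586, minus strand): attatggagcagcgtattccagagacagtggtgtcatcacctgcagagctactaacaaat
Ttn A_52_P569906 (chr2:76701487-76701546, minus strand): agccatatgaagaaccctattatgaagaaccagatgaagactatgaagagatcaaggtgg
Ttn A_52_P659477 (chr2:76689775-76690126, minus strand): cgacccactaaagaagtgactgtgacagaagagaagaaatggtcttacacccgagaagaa
Ttn A_51_P191400 (chr2:76580203-76580262, minus strand): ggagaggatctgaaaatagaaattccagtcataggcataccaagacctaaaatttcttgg
Ttn A_52_P454295 (chr2:76551742-76551801, minus strand): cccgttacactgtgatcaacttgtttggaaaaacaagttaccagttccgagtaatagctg
Myl3 A_51_P434910 holds 68.3% G and C, against 48.3% in the other Myl3 probe and 36.7% to 45.0% in the 6 Ttn probes shown. For both Myh6 probes the array files list the RefSeq transcript of Myh7 beside those of Myh6, so a signal there cannot be given to the α chain alone.

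None of the thick filament and M-band probes differed between the channels after adjustment. All 22 probes passed the filter on dim probes, 4 of them had no usable ratio because both channels were saturated on every array, and of the other 18 none was called higher or lower (limma, Benjamini-Hochberg over all tested probes, adjusted p under 0.05). In the background of 28343 tested probes 391 were called higher (1.38%) and 1 was called lower (0.00353%). At an unadjusted p under 0.05 the 18 probes held 2 higher, Ttn A_51_P401792 and Myom2 A_51_P431785, and 1 lower, Mylk3 A_51_P160255, beside 9.05% higher and 4.27% lower of all tested probes. The methods' t-test on the same values called none after adjustment and only Mylk3, as lower, before it. The median log2 ratio of the 18 probes was 0.06, against 0.01 for all tested probes. The p-values measure the spread between 3 pairs of pools.

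The heavy chain of the fetal ventricle could not be compared at all. Both Myh7 probes (A_52_P88033 and A_51_P143162, chromosome 14, 55589526 to 55589585 and 55589531 to 55589590) were saturated in Cy5 and in Cy3 on all 3 arrays. On replicates 1, 2 and 3 the mean Cy5 signal of A_52_P88033 was 65260, 65520 and 65430 and its mean Cy3 signal 65240, 65520 and 65520, which is the scanner's limit. The probes overlap, so they are no independent readings of the gene. The probe of Mybpc3 (A_51_P465449, chromosome 2, 90976577 to 90976636), the filament's regulatory binding protein, lay at the same limit in both channels on all 3 arrays, and so did Myl3 A_51_P177210. No fold is given for these 4 probes.

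A saturated pair of spots still yields a number after normalization, and that number was nearly the same for every such probe. The raw log2 ratios of these 4 probes lay within 0.01 of 0 on each array. After background correction and loess they were all -0.33 on replicate 1, and ran from -0.13 to -0.12 on replicate 2 and from -0.17 to -0.16 on replicate 3, so Myh7, Mybpc3 and Myl3 all appeared lower in the channel labelled Lrrc10-/- by one common amount per array. Over all 56 gene probes saturated in both channels on all arrays (0.136% of gene probes), the medians of the normalized log2 ratio were -0.33, -0.12 and -0.16. Of the 22 member probes 4 were of this kind, or 18.2%. The software's own flag would have missed it: it was set on none of 455 Cy3 gene spots at the limit on replicate 2, and by the flag alone no member probe would count as saturated in both channels on every array.

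**Figure D1:**
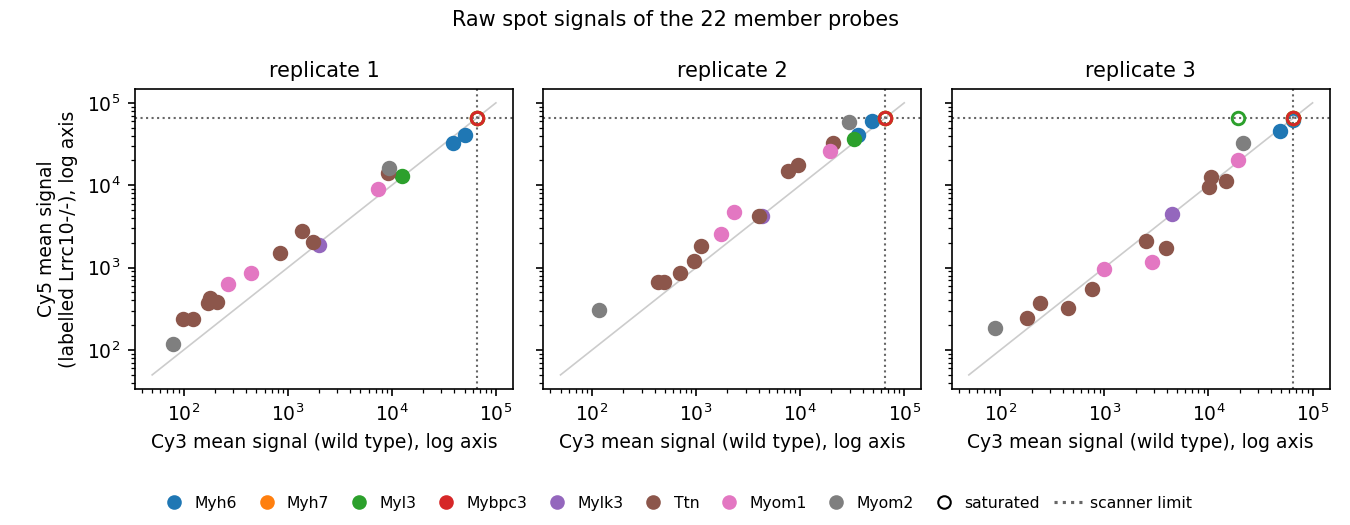
Mean spot signals of the 22 probes of the thick filament and M-band genes, Cy3 (labelled wild type) on the horizontal and Cy5 (labelled Lrrc10-/-) on the vertical axis, both logarithmic, 1 panel per array. Open circles are saturated spots and dotted lines the scanner limit; the circles of Myh7, Mybpc3 and Myl3 A_51_P177210 lie on top of each other at the corner on all 3 arrays, and Myl3 A_51_P434910 reaches the Cy5 limit on replicate 3 at a Cy3 signal of 19370.

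The probes named Myh6 were measurable and did not pass the test. The unsaturated probe A_52_P117510 gave log2 ratios of -0.62, 0.03 and -0.29 on replicates 1, 2 and 3 (mean -0.30 ± 0.15 SE, n = 3, limma adjusted p = 0.446). Its raw Cy5 signal was 40750, 40740 and 45360 and its raw Cy3 signal 50220, 36170 and 48710, so Cy5 was the weaker channel on replicates 1 and 3 and the stronger on replicate 2. The second probe, A_51_P512210, had -0.55, 0.15 and -0.24 (mean -0.21 ± 0.16 SE, n = 3, limma adjusted p = 0.592). Its Cy3 spot was saturated on replicate 3, with 33 of 56 pixels at the limit, and its Cy5 spot also had 15 of 56 pixels there, so the ratio of -0.24 on that array is not a bound in either direction. The difference between the probes was 0.07 and 0.13 on replicates 1 and 2. On replicate 2 the Cy5 spot of A_51_P512210 had 15 of 58 pixels at the limit, so the difference of 0.13 is uncertain. On replicate 3 the saturated spot leaves none to give. A comparison of Myh6 with Myh7 was planned on unsaturated probes and could not be made, because Myh7 has none.

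Myl3, the ventricular essential light chain, had 1 probe with a ratio, whose mean rested on a saturated spot of 1 array. A_51_P434910 had log2 ratios of -0.23, -0.01 and 1.52 on replicates 1, 2 and 3 (mean 0.43 ± 0.31 SE, n = 3, limma adjusted p = 0.591). On replicate 3 its Cy5 spot was at the limit, with 50 of 63 pixels saturated and a mean signal of 64780, while its Cy3 signal was 19370, so the value of 1.52 is a lower bound on that array. On all 3 arrays A_51_P177210 was at the limit in both channels, so it holds no ratio to set against this one. The positive mean rests on this spot alone: without saturated spots, which also is the value without replicate 3, it was -0.12.

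Mylk3 encodes the cardiac myosin light chain kinase, which phosphorylates the regulatory light chain. Its probe A_51_P160255 (chromosome 8, 87851028 to 87851087), which carries the name in the files of replicates 1 and 3 only, gave the least variable ratios of the set: -0.32, -0.23 and -0.32 (mean -0.29 ± 0.11 SE, SD 0.06, n = 3). It was below 0 on 3 of 3 arrays, as 17.4% of all tested probes were, and did not pass the test (limma adjusted p = 0.340). Before normalization the channels were nearly equal, with raw log2 ratios of -0.08, -0.00 and 0.02. Loess sets each probe against the probes of like intensity on its array, and relative to these its ratio was below 0. Its mean stayed below 0 under all 15 alternatives (from -0.35 to -0.20).

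**Figure D2:**
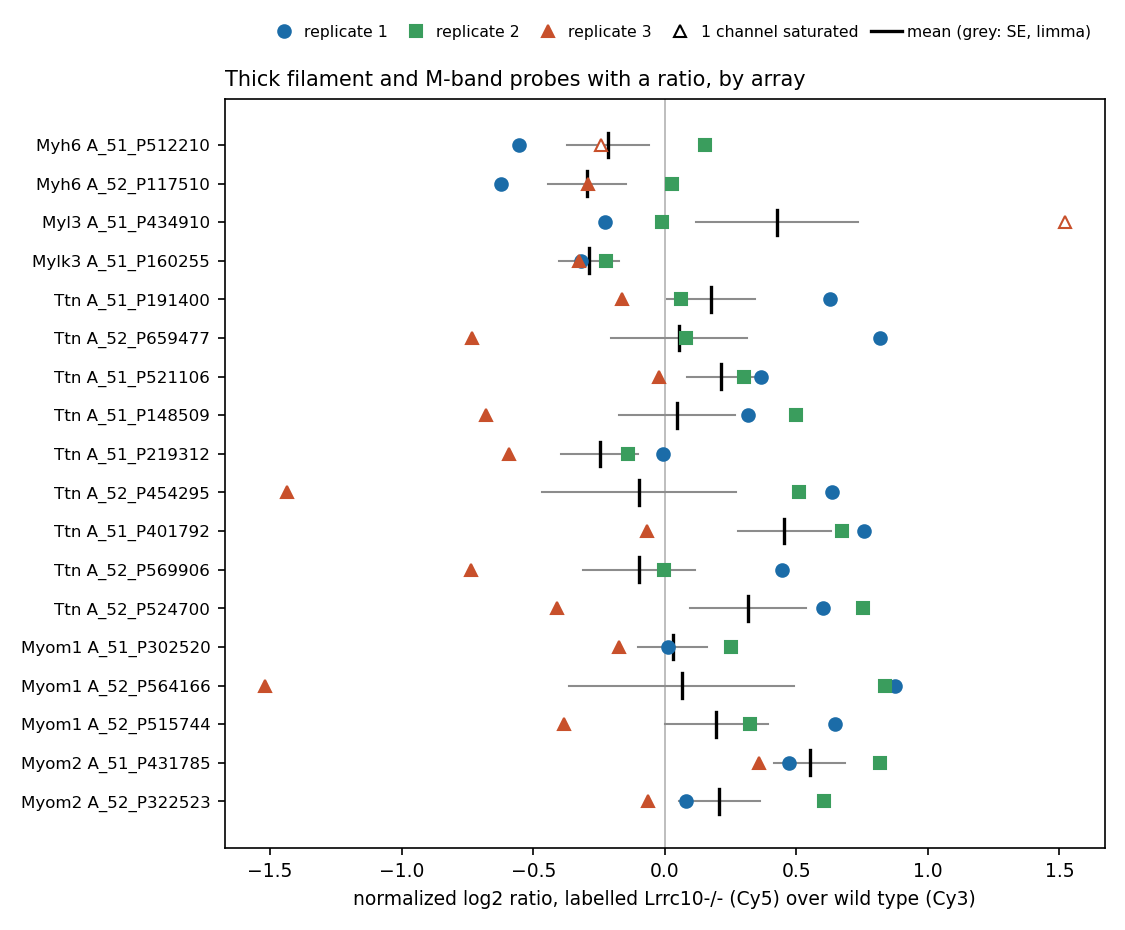
Normalized log2 ratios, Cy5 (labelled Lrrc10-/-) over Cy3 (labelled wild type), of the 18 probes with a ratio: each symbol is 1 array, open where a channel was saturated, with the mean as a black bar and the limma SE as a grey line (n = 3). All 12 Ttn and Myom1 probes lie below 0 on replicate 3, and the Myl3 mean is drawn to the right by the open symbol at 1.52.

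Titin and myomesin 1 split by array. On replicates 1 and 2 most of their probes were higher in the channel labelled Lrrc10-/-, and on replicate 3 all 12 were lower, as were 50.8% of all tested probes. Of the 12 probes 10 were above 0 on replicates 1 and 2 and below 0 on replicate 3 (83.3%), a pattern shown by 15.7% of all tested probes, and their median log2 ratio was 0.62, 0.31 and -0.50 on replicates 1, 2 and 3. The pattern and the grouping of these 2 genes were not planned and were named after the values were seen. Of all 18 member probes with a ratio 11 showed the pattern (61.1%). Probes of 1 gene share their RNA and are not replicates, so this is a description of 3 arrays. The sign on replicate 3 was the same for all 12 under software processed signals, no background correction, median centring and scaling between arrays. The full pattern held for 8, 11, 8 and 10 of the 12 under those settings in the same order.

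Among the 9 Ttn probes the highest mean was that of A_51_P401792, with 0.76, 0.67 and -0.07 (mean 0.45 ± 0.18 SE, n = 3, limma adjusted p = 0.336). It lies 19.6 kb from the 5′-most probe, A_52_P524700, which had 0.60, 0.75 and -0.41 (mean 0.32). Both sit in the 5′ part of the gene, which encodes the Z-disc end of titin. The widest spread was at A_52_P454295, 251 kb downstream, with 0.63, 0.51 and -1.44 (mean -0.10, SD 1.16): its Cy5 signal was 372, 1850 and 1710 and its Cy3 signal 171, 1127 and 3873, so Cy3 was the stronger channel on replicate 3 only.

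For A_52_P569906 and A_52_P659477, 102 and 113 kb along the gene, the files list only 1 of the 2 RefSeq titin transcripts, whereas for 6 other probes they list both. A_52_P569906 had 0.45, -0.00 and -0.74 (mean -0.10) and A_52_P659477 had 0.82, 0.08 and -0.73 (mean 0.05), so these probes too were higher on replicate 1 and lower on replicate 3, with replicate 2 near 0. A_51_P191400, 223 kb along, ran 0.63, 0.06 and -0.16 (mean 0.18).

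Near the 3′ end, where titin enters the M-band, A_51_P148509 gave 0.32, 0.50 and -0.68 (mean 0.05) and A_51_P521106, just downstream of it, gave 0.36, 0.30 and -0.02 (mean 0.21). The only Ttn probe below 0 on all arrays was A_51_P219312 (-0.01, -0.14 and -0.59, mean -0.25, limma adjusted p = 0.513), which is named Ttn in the file of 1 array only and has no RefSeq transcript listed. Within an array the 9 probes differed by 0.82, 0.89 and 1.42 between the lowest and the highest on replicates 1, 2 and 3. Some of the 9 were dim, and their ratios moved with the processing. A_51_P191400 had a Cy5 signal of 237, 668 and 245, and on replicate 3 its log2 ratio was -0.16 here and -1.05 by software processed signals.

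**Figure D3:**
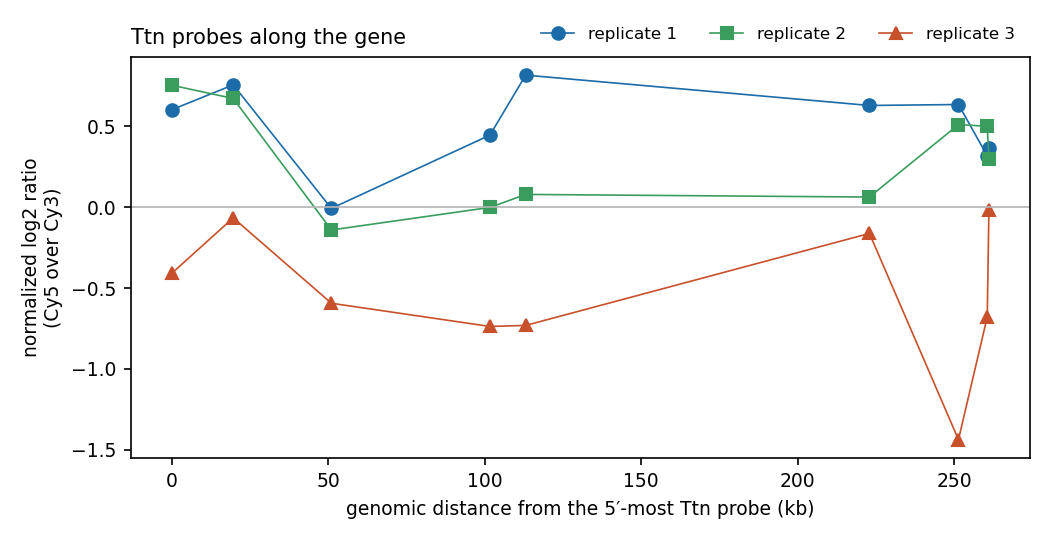
Normalized log2 ratio (Cy5 over Cy3) of the 9 Ttn probes against the genomic distance from the 5′-most probe, in kb, with 1 line per array (lines only connect the probes of an array). Replicate 3 lies below 0 at every probe and below replicates 1 and 2 throughout, and the lines do not follow a common slope along the gene.

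Myom1, the myomesin of all striated muscle, had 3 probes. A_51_P302520 (chromosome 17, 71475839 to 71475898), the only one for which a RefSeq transcript is listed, varied least: 0.01, 0.25 and -0.17 (mean 0.03 ± 0.13 SE, n = 3, limma adjusted p = 0.946). A_52_P564166 (71442247 to 71442306) gave 0.87, 0.84 and -1.52 (mean 0.06, SD 1.37), with a Cy5 signal of 626, 4719 and 1173 against a Cy3 signal of 267, 2297 and 2862. A_52_P515744 (71432602 to 71432661) gave 0.65, 0.33 and -0.38 (mean 0.20, SD 0.53). The mean of each Myom1 probe thus averages values of opposite sign and is smaller than their SD.

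Myom2, the myomesin of adult heart and fast muscle, held the largest mean difference of the set. A_51_P431785 (chromosome 8, 15133322 to 15133381) was higher in the channel labelled Lrrc10-/- on 3 of 3 arrays, as were 19.1% of all tested probes, with log2 ratios of 0.47, 0.82 and 0.36 (mean 0.55 ± 0.13 SE, n = 3). That is 1.46-fold, and it did not pass the test (limma adjusted p = 0.143). Over 15 alternatives the mean ran from 0.31, with software processed signals, to 0.65, without replicate 3. With software processed signals Ttn A_51_P401792 had the larger mean (0.56). The raw Cy5 signal of A_51_P431785 was 16070, 57820 and 32240 and its raw Cy3 signal 9504, 29740 and 21290. Cy5 was thus the stronger channel on each array. Over all gene spots the median background-subtracted signal was also higher in Cy5 on replicates 1 and 3 (148.6 against 89.57 and 130.4 against 101.8). On replicate 2 that median was 335.1 in Cy5 against 340.3 in Cy3. A few pixels of the Cy5 spot of A_51_P431785 on replicate 2 (15 of 64) were at the limit. The second Myom2 probe, A_52_P322523 (15073624 to 15073683), for which no RefSeq transcript is listed, was dim and gave 0.08, 0.61 and -0.06 (mean 0.21, adjusted p = 0.606).

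Replicate 3 decided whether any of these genes was called. Without it 5 member probes were higher at an adjusted p under 0.05, where 5.47% of all tested probes were higher (1539) and 0.882% lower (248). They were Myom1 A_52_P564166 (log2 ratio 0.86, limma adjusted p = 0.00111), Ttn A_51_P401792 (0.71, adjusted p = 0.00505), Ttn A_52_P524700 (0.68, adjusted p = 0.0078), Myom2 A_51_P431785 (0.65, adjusted p = 0.0139) and Ttn A_52_P454295 (0.57, adjusted p = 0.0236). These values rest on 2 arrays, which differ in scanner and software version. Of the 5 probes only that of Myom2 was above 0 on replicate 3.

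**Figure D4:**
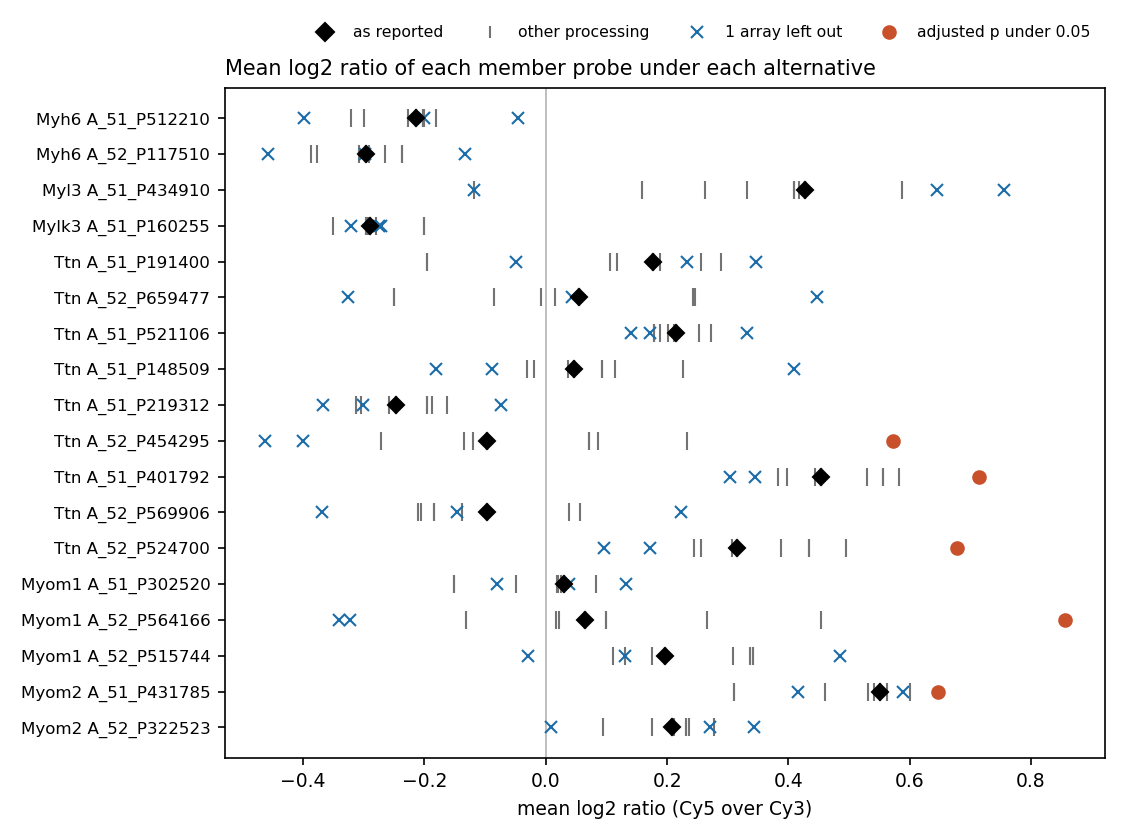
Mean log2 ratio (Cy5 over Cy3) of each of the 18 probes as reported (black diamonds), under other processing (grey bars) and with 1 array left out (crosses), with orange circles for values at an adjusted p under 0.05. The orange circles all belong to the fit without replicate 3. The means of both Myom2 probes, both Myh6 probes, Mylk3 and Ttn A_51_P401792, A_52_P524700, A_51_P521106 and A_51_P219312 stay on 1 side of 0.

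Genes that work with the thick filament and M-band were listed separately and described by 1 unsaturated probe each. Of 44 such genes 34 had such a probe, 9 had only saturated tested probes and 1 was not above the filter on dim probes. None of the 34 was called (limma, adjusted p under 0.05), 6 were higher and 0 lower at an unadjusted p under 0.05 (9.05% and 4.27% of all tested probes), and the median log2 ratio was 0.04 against 0.01 for all tested probes. The methods' t-test called none of them after adjustment and 1 as higher before it. Among the probes not used for these genes, Nbr1 A_52_P348627 (mean -0.45, limma adjusted p = 0.195) and Myl1 A_52_P273120 were lower at an unadjusted p under 0.05.

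The genes of lowest p among those higher in the channel labelled Lrrc10-/- were a mitochondrial creatine kinase, a light chain kinase and a factor for sarcomere assembly. Ckmt2, the sarcomeric mitochondrial creatine kinase, had log2 ratios of 0.68, 0.33 and 0.80 (mean 0.60, limma adjusted p = 0.112). Mylk2, the skeletal muscle light chain kinase, had 0.43, 0.41 and 1.03 (mean 0.63, adjusted p = 0.149). Smyd1, a methyltransferase needed for myosin assembly, had 0.36, 0.42 and 0.33 (mean 0.37, adjusted p = 0.235). These probes were above 0 on every array, as were 19.1% of all tested probes, and none passed the test. A second unsaturated Smyd1 probe, A_51_P468055, gave -0.20, 0.05 and 0.21 (mean 0.02, adjusted p = 0.965).

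In the other direction the lowest p values over the 34 probes were those of Myh1 A_51_P192042 (mean -0.26, adjusted p = 0.399), a fast skeletal heavy chain, Mylk (mean -0.23, adjusted p = 0.446), the smooth muscle light chain kinase, and the chaperone Hsp90ab1 (mean -0.32, adjusted p = 0.501). These probes of Myh1 and Mylk were below 0 on 3 of 3 arrays and that of Hsp90ab1 on 2. Another Myh1 probe of like signal, A_51_P364788, was above 0 on 3 of 3 arrays (0.32, 0.55 and 0.01, mean 0.29, adjusted p = 0.418), so the probes of Myh1 point in opposite directions. Both were dim, with Cy5 signals of 186.2, 358.5 and 267.4 at A_51_P192042 and of 191.4, 361.5 and 201.4 at A_51_P364788. The latter was not well above background in Cy5 on replicate 3, so neither is a firm reading of Myh1. Summed processed signals of the 4 smooth muscle markers (all well above background) ranged from 61670 to 133100 in Cy5 and from 71300 to 174300 in Cy3 and were lower in Cy5 on each array. The sums of the mesenchyme and skeletal muscle markers were also lower in Cy5 on each array, but the brightest genes weigh most in such sums. The median log2 ratio on replicates 1, 2 and 3 was -0.08, -0.13 and -0.14 for smooth muscle. It was -0.28, -0.13 and 0.02 for mesenchyme and 0.16, -0.10 and 0.05 for skeletal muscle. Medians below 0 on each array were not particular to smooth muscle, as the erythroid markers had -0.23, -0.48 and -0.16. The sums of the atrium and macrophage markers were higher in Cy5 on each array, but their medians changed sign between arrays. The median log2 ratio on replicates 1, 2 and 3 was -0.17, -0.12 and 0.11 for atrium and 0.20, 0.20 and -0.09 for macrophages. The part of the smooth muscle difference in the Mylk value was not tested. Without replicate 3, 4 of these partner genes were called, and they are named here after their values were seen: the M-band ligase Trim55 (0.57), Cmya5 (0.68) and the kinase Speg (0.54) as higher and Hsp90ab1 (-0.58) as lower.

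The light chains met the same limit as Myl3. Myl2, the ventricular regulatory light chain, was saturated in both channels on all 3 arrays. Myl7, its atrial counterpart, was saturated in both channels on replicates 2 and 3 and in Cy5 only on replicate 1, and so was Myl4 A_51_P413130, a probe of the atrial essential light chain, while the other Myl4 probe was saturated in both on all 3. Only the light chains of fast skeletal muscle gave unsaturated values. Myl1 A_51_P416858 had 0.04, -0.40 and 0.20 (mean -0.05, adjusted p = 0.906) and Mylpf had 0.54, -0.11 and 0.40 (mean 0.28, adjusted p = 0.485), and both changed sign between arrays. The other Myl1 probe, A_52_P273120, was below 0 on all 3 arrays, with -0.25, -0.15 and -0.48 (mean -0.29, adjusted p = 0.371).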

How the data were processed

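Each of the 3 arrays has a scanner file and a column in a series table. Per the file headers, spot intensities were extracted with Agilent Feature Extraction 9.1.3.1 (replicate 1, local background protocol) and 10.7.3.1 (replicates 2 and 3), while the submitters' processing notes name version 9.5. The deposited processed intensity is background-subtracted and dye-normalized by that software, and the deposited log10 ratio is Cy5 over Cy3. The deposited series table equals those log10 ratios (largest difference 0). Here, mean signals were corrected with normexp on the median local background (offset 50) and normalized by loess within arrays in limma 3.58.1 (R 4.3.3), with control spots at weight 0, non-uniform spots left out and spots of a probe averaged. Log2 ratios were tested against 0 with lmFit and eBayes, two-sided, and adjusted by Benjamini-Hochberg (threshold 0.05). A probe was tested if one and the same channel was well above background on all 3 arrays; 28343 had a p-value. A channel counted as saturated if flagged or within 1% of its limit (99% of the highest signal or more). Saturated spots were kept. The fit was tested on simulated data.

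Replicate numbers and channels are those of the labels. Every probe of the 9 genes is named, and Lrrc10 as the check of the labels; among related genes, those past the threshold or else the 3 of lowest p in each direction, and all light chains, represented by the brightest tested probe never saturated. Members, lists and alternatives were chosen with earlier results of these data known. Lists of marker genes for the ventricle (median log2 ratio 0.19), atrium (0.01), skeletal muscle (0.07), smooth muscle (-0.10), endothelium (0.02), mesenchyme (-0.14), erythroid cells (-0.24), liver (-0.78) and macrophages (0.09) gave 0 calls, as did that for cardiomyocytes (-0.05). Alternatives covered background correction, normalization, scaling, dim and saturated spots, the test, array weights, software version as a block and leaving out each array.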

Additional observations from a re-analysis of the deposited data

How the results depend on the processing

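Over 15 alternatives each, the 18 member probes gave 236 values with the same direction and the same side of the threshold, 4 of the same direction that passed it and 30 of opposite sign, of which that of Ttn A_52_P454295 without replicate 3 also passed. No member probe and no related gene was called under any alternative run for it that kept all 3 arrays. Saturation by the software flag alone was run for the members only.

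Software processed signals and the series table, which are the same numbers, turned Ttn A_51_P191400 (-0.20), Ttn A_52_P659477 (-0.25), Ttn A_52_P454295 (0.071) and Myom1 A_51_P302520 (-0.15). No background correction turned Ttn A_52_P659477 (-0.0075). Median centring turned Ttn A_51_P148509 (-0.020) and Myom1 A_51_P302520 (-0.049). Scaling between arrays turned Ttn A_52_P659477 (-0.085), Ttn A_51_P148509 (-0.030) and Myom1 A_52_P564166 (-0.13). Array weights turned Ttn A_52_P454295 (0.23) and Ttn A_52_P569906 (0.057), and the software version as a block turned the same probes (0.086 and 0.038). Leaving out saturated spots turned Myl3 A_51_P434910 (-0.12).

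Leaving out 1 array at a time gave ranges across 0 for Myl3 A_51_P434910 (-0.12 to 0.76), Ttn A_51_P191400 (-0.050 to 0.35), Ttn A_52_P659477 (-0.33 to 0.45), Ttn A_51_P148509 (-0.18 to 0.41), Ttn A_52_P454295 (-0.46 to 0.57), Ttn A_52_P569906 (-0.37 to 0.22), Myom1 A_51_P302520 (-0.081 to 0.13), Myom1 A_52_P564166 (-0.34 to 0.86) and Myom1 A_52_P515744 (-0.029 to 0.49). Members called higher ranged from 0 to 5 and called lower stayed at 0, related genes from 0 to 3 and from 0 to 1, and all tested probes from 1 to 1539 and from 0 to 248; the upper ends are all without replicate 3. The cause was not tested.

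Over all tested probes, 0 were called higher and 0 lower with software processed signals, the series table, scaling between arrays or the methods' t-test, 1 and 0 with no background correction or the software version as a block, and 145 and 0 with no filter on dim probes. Calls lower were 2 with median centring (264 higher) or a processed signal of at least 20 in both channels, 14 with array weights, 3 with an intensity trend and 4 without saturated spots, against 1. The methods' t-test found 1529 higher and 1103 lower at an unadjusted p under 0.05. Each array pairs the channels, so the test of the log2 ratios against 0 is already a paired analysis, and no further pairing was possible. The comparison of Myh6 with Myh7 could not be run under any setting. Saturation limits what the brightest probes can show, and 3 arrays limit the rest.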

Other observations

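The probes of the skeletal muscle heavy chains Myh4 and Myh8 did not read alike. Myh8 A_51_P143296 was saturated in both channels on all 3 arrays, while the other 3 Myh8 probes were not well above background in either channel on all arrays. Myh4 A_52_P602147 gave mean Cy5 signals of 30990, 47580 and 35560 and mean Cy3 signals of 20320, 29710 and 28940 (mean log2 ratio 0.31, limma adjusted p = 0.383), while Myh4 A_51_P338072 did not pass the filter on dim probes. Probes of 1 heavy chain may read the transcript of another where their sequences are close. That was not tested here, and the values of both bright probes are uncertain as readings of the named gene.

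Probes of 1 related gene also differed in their ratio. Ppp1r12b, a subunit of myosin phosphatase, had 0.44, 1.27 and 0.84 at A_52_P366313 (mean 0.85, limma adjusted p = 0.074), -0.09, 0.27 and -0.26 at A_51_P380276 (mean -0.03) and 0.32, 0.42 and -0.41 at A_52_P65524 (mean 0.11), the brightest of the 3.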
